A study of Mus musculus with 4 samples.

Results

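The genes described here encode the thiol and metal-binding defences of the cell: glutathione S-transferases, glutathione synthesis enzymes, glutathione peroxidases, peroxiredoxins, thioredoxin-named proteins, superoxide dismutases, catalase, the quinone reductase Nqo1, heme oxygenase Hmox1 and the metallothioneins Mt1 and Mt2. The rule that picks them reads gene symbols, and it was written with earlier results of these data known. The array held 94 probes for 65 such genes, out of 25697 probes and 16593 genes in all, and where a gene had several probes the brightest, by mean log2 intensity over the 4 arrays, stands for it. Gsr, the glutathione reductase gene, was not analysed here.

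Total RNA was hybridised to Illumina mouse bead arrays in 2 groups of 2 arrays, which the labels call biological replicates. The parnate/mAMFGi group is mouse cells that the labels describe as converted to embryonic stem (ES) cells, in a study that converted epiblast stem cells with small molecules. Parnate is tranylcypromine, an inhibitor of the histone demethylase LSD1, and the labels do not spell out mAMFGi. The EpiSC group is epiblast stem cells, which are pluripotent cells of the postimplantation epiblast. Per the labels, the ES medium was DMEM with 10% fetal bovine serum and 1000 units/ml of the cytokine LIF, whereas EpiSCs were in DF12 with 20% serum replacement and 10 ng/ml of the growth factor bFGF. Feeders of irradiated mouse embryonic fibroblasts, the thiol beta-mercaptoethanol, glutamine and nonessential amino acids were common to both media. Base medium, serum, growth factor, exposure to the compounds and cell state changed together between the groups and cannot be told apart. The labels give no strain, passage number or number of lines, nor whether the compounds were present at harvest.

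Glutathione is a cysteine-containing tripeptide made by glutamate-cysteine ligase, whose subunits are encoded by Gclc and Gclm, and then by glutathione synthetase, encoded by Gss. Transferases couple it to reactive compounds, and glutathione peroxidases spend it to reduce peroxides. Peroxiredoxins also reduce peroxides and are in turn reduced by thioredoxin, which thioredoxin reductase recharges with NADPH. The transcription factor NRF2, encoded by Nfe2l2 and held in check by KEAP1, is a known activator of many of these genes, and MTF1 is the metal-sensing activator of metallothionein genes.

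The arrays were checked against marker lists. ES cell genes were higher in the parnate/mAMFGi cells for 7 of 8 measured markers, with summed intensities of 39291 and 40613 on the parnate/mAMFGi arrays, against 449.7 and 487.1 on the EpiSC arrays. Of 6 EpiSC markers, Fgf5 and Fgf8 were lower in the parnate/mAMFGi cells, Otx2 was higher, and Cer1, Foxa2 and Eomes did not pass and read at most 86.6. Of 13 fibroblast feeder markers, 9 were higher, among them Lox (log2 fold change 4.23) and Col1a1 (2.21), and Thy1, Vim and Mmp2 were lower in the parnate/mAMFGi cells. The summed intensities of the 13 overlapped, at 8155 and 7324 in parnate/mAMFGi and 8032 and 6861 in EpiSC. Much of the EpiSC sums came from Mmp2 (3540 and 2750) and Vim (2640 and 2493), which were lower in parnate/mAMFGi. The overlap therefore does not show that feeder content was equal. Of 7 extraembryonic endoderm markers, 4 were higher, with sums of 651.1 and 631.7 in parnate/mAMFGi and 619.0 and 551.6 in EpiSC. The part of feeder or endoderm RNA in the results below was not tested, and in whole-culture RNA fewer cells of a type cannot be told apart from less RNA per cell.

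Of the 65 genes, 25 were higher and 18 lower in parnate/mAMFGi cells at a Benjamini-Hochberg adjusted p under 0.05 in limma, and 22 did not pass. The 43 called genes are 66.2% of the members, against 41.5% of all 16593 genes (20.2% higher and 21.2% lower) and 38.4% of all probes. Changes of at least 2-fold numbered 9 up and 10 down, which is 29.2% of the members against 11.4% of all genes. All 43 called genes had groups that did not overlap. Over the members, 55 of 65 (84.6%) did not overlap, against 66.1% of all genes.

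Brightness bears on these shares, because 10259 of the 16593 genes had a mean under 100 over the 4 arrays and the array medians were 50 to 52. Of the 46 members with a mean of at least 100, 35 were called (76.1%), close to the 72.8% of all genes of that brightness. At least 2-fold changes made up 39.1% of these members, against 23.9% of such genes. That mean is taken over both groups, so a gene can reach 100 only through the group where it is high. Among the members, Gstp2, Gpx2, Nqo1 and Gsta3 read under 100 in EpiSC, and Gstt1 did in parnate/mAMFGi. The difference in 2-fold shares is therefore no evidence about the members. By direction, 18 of these 46 members were called higher and 17 lower, against 2118 higher and 2492 lower among the 6334 genes of that brightness. Of the dimmer members, 7 were called higher and 1 lower. The median absolute log2 fold change was 0.51 over the members and 0.19 over all genes, or 0.66 and 0.53 among those with a mean of at least 100. The signed medians were 0.09 over the members and 0.02 over all genes. These medians do not measure the balance of calls, which was 25 higher and 18 lower over the members. All log2 fold changes are parnate/mAMFGi minus EpiSC, and a background remained in the intensities, so folds are understated where a gene reads near 50 in a group.

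**Figure D1:**
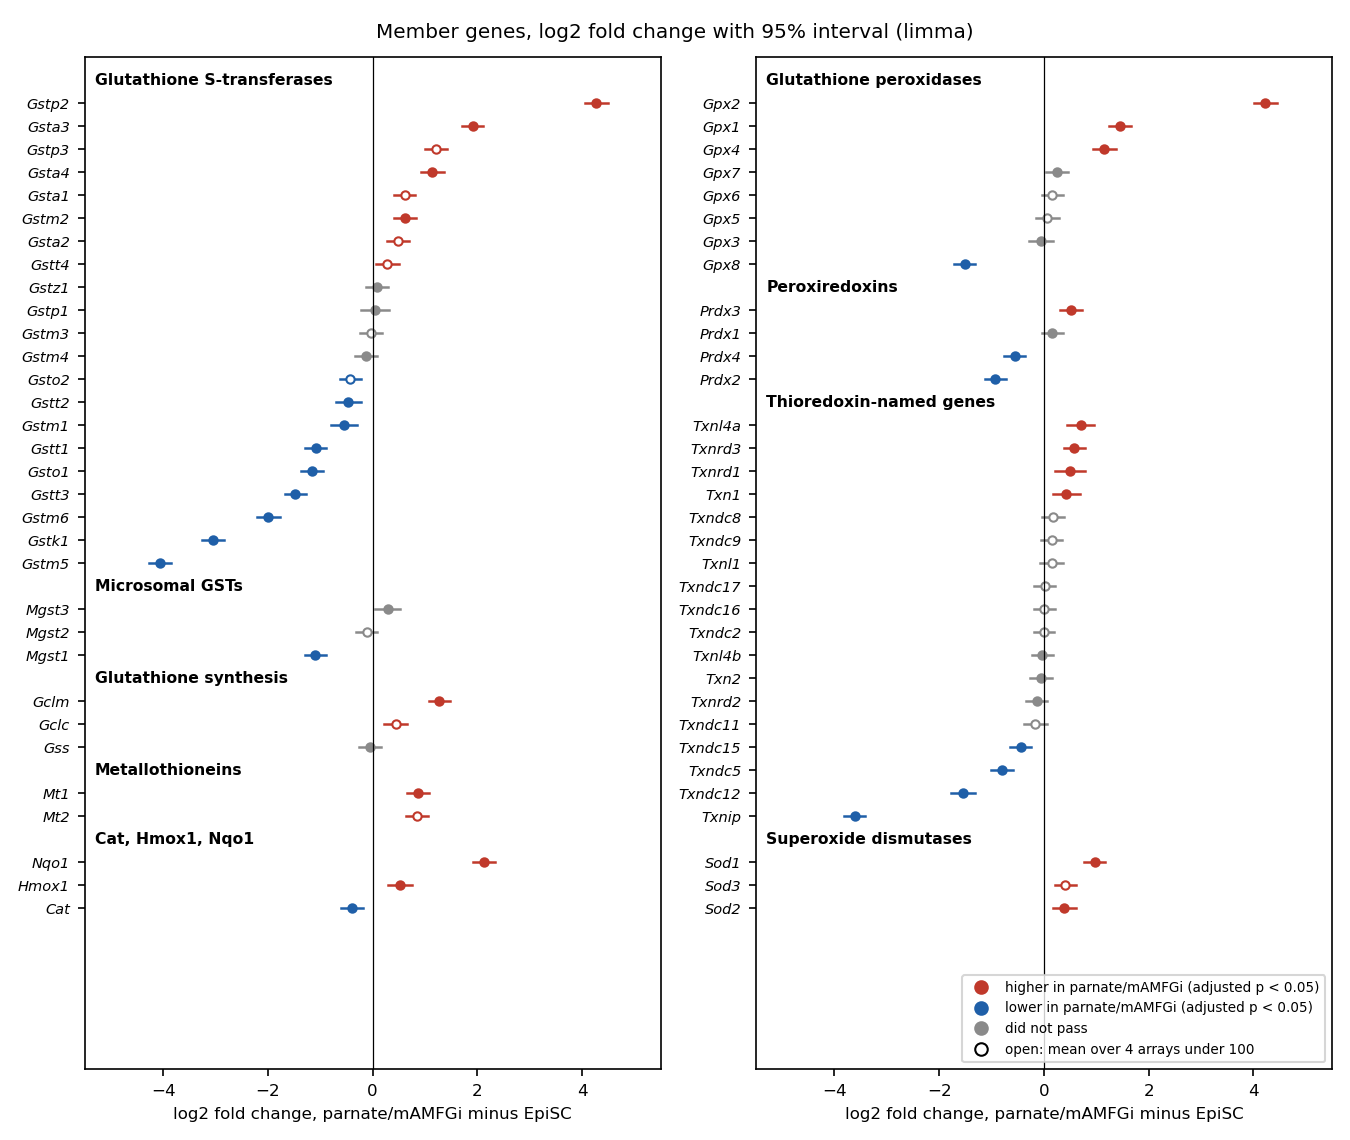
Log2 fold change (x axis, parnate/mAMFGi minus EpiSC) of each of the 65 genes with its 95% limma interval, by family. Red points were higher and blue points lower at an adjusted p under 0.05, grey points did not pass, and open points had a mean under 100 over the 4 arrays. Gstp2 (4.27) and Gpx2 (4.23) stand at one end, and Gstm5 (−4.05), Txnip (−3.61) and Gstk1 (−3.05) at the other.

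**Figure D2:**
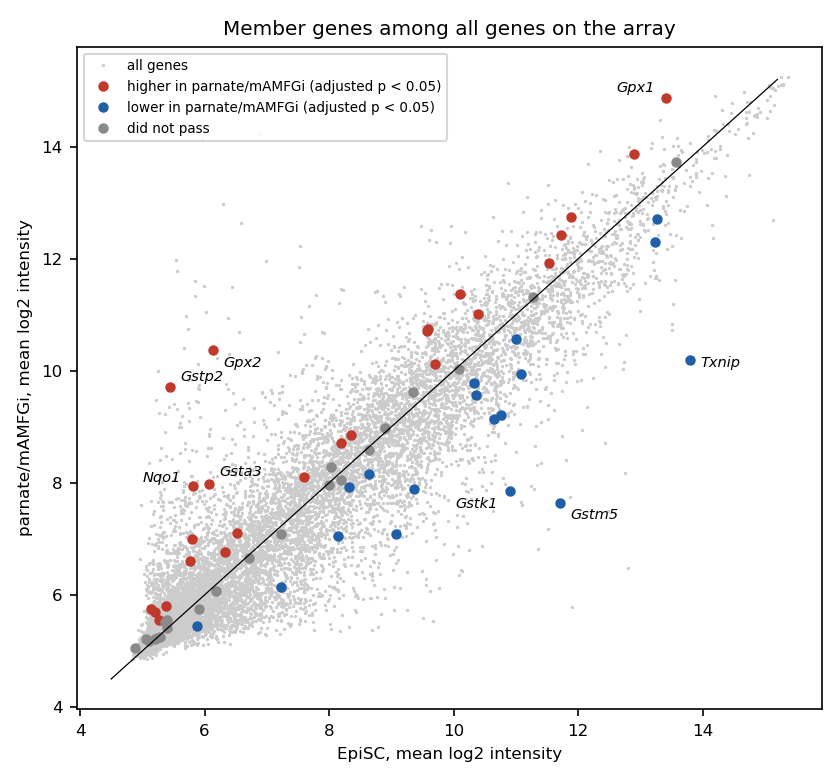
Mean log2 intensity in parnate/mAMFGi (y axis) against EpiSC (x axis) for all 16593 genes (pale dots) and the 65 members (coloured as higher, lower or not passing). The line marks equal values; Gstp2 and Gpx2 lie far above it from low EpiSC values, whereas Txnip and Gstm5 lie far below it.

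Glutathione S-transferase genes went both ways. Of 21 cytosolic, kappa and zeta transferase genes, 8 rose, 9 fell and 4 did not pass, with a median log2 fold change of −0.03. For comparison, 41.5% of all genes were called, and 72.8% of those with a mean of at least 100. All 4 alpha-class genes rose, as did 2 of 3 pi-class genes, while kappa and both omega genes fell and the mu and theta classes went both ways. Gsta1, Gsta2 and Gsto2 read at or near the background and kappa is 1 gene, so these class counts rest on few readable genes.

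Gstp2, a pi-class transferase gene, read 869.0 and 808.1 on the parnate/mAMFGi arrays, against 40.5 and 46.8 on the EpiSC arrays (log2 fold change 4.27, SE 0.10, adjusted p = 3.9e-13). Its EpiSC values lie below the array medians, so the probe was at background level there and well above it in the parnate/mAMFGi cells. Its neighbour Gstp3 read 132.0 and 124.4 in parnate/mAMFGi, against 53.2 and 57.8 in EpiSC (1.21, SE 0.10, adjusted p = 9.93e-08). The third gene of the cluster, Gstp1, did not pass: it read 2724 and 2395 in parnate/mAMFGi and 2175 and 2823 in EpiSC, so the groups overlapped (0.04, SE 0.12, adjusted p = 0.844). The sign of the Gstp1 difference turned under 3 alternatives, to between −0.14 and −0.01. In the RefSeq table of assembly GRCm38.p6 the 3 pi-class genes lie side by side on chromosome 19. Their transcripts are closely related, and cross-hybridisation between the probes was not tested.

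Among alpha-class genes, which encode transferases active on lipid peroxidation products, Gsta3 read 245.3 and 258.9 in parnate/mAMFGi, against 64.8 and 69.6 in EpiSC (log2 fold change 1.91, SE 0.10, adjusted p = 7.29e-10). A second Gsta3 probe stood at background in both groups, and with all probes averaged the change was 0.98 (adjusted p = 1.41e-06, in a range of 1.2e-13 to 1.33e-05). Gsta4, whose product conjugates 4-hydroxynonenal, read 1775 and 1589 in parnate/mAMFGi, against 815.0 and 718.5 in EpiSC (1.13, SE 0.10). The remaining pair, Gsta1 (0.61) and Gsta2 (0.49), also passed but read between 34.1 and 54.2 on every array, within the background, and are near-identical paralogs. Gsta1, Gsta2 and Gsta4 are on chromosome 9 and Gsta3 is on chromosome 1.

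The mu-class genes gave the deepest fall of all members. Gstm5 read 213.5 and 188.1 on the parnate/mAMFGi arrays, against 3352 and 3309 on the EpiSC arrays (log2 fold change −4.05, SE 0.10, adjusted p = 4.15e-13). Gstm6 read 140.0 and 132.4 in parnate/mAMFGi, against 585.7 and 499.9 in EpiSC (−1.99, SE 0.10, adjusted p = 1.05e-09), and its second probe fell too. Both genes were thus clearly above background in EpiSCs and several-fold lower in the converted cells. Gstm1 fell by 0.55 on the log2 scale and Gstm2 rose by 0.61, with 3 of 3 Gstm2 probes higher. The second Gstm1 probe was dim and did not pass (−0.08, adjusted p = 0.62), and averaging the Gstm1 probes gave −0.31. Gstm4 (−0.13) and Gstm3 (−0.03) did not pass, and Gstm3 read at most 41.1 on every array. On chromosome 3 the order in the RefSeq table is Gstm5, Gstm7, Gstm6, Gstm3, Gstm2, Gstm1 and Gstm4, with 0 other protein-coding genes starting between them. The deep falls are thus at the Gstm5 end of the cluster, and the genes beyond Gstm6 had log2 fold changes between −0.55 and 0.61. Gstm7 was not analysed here.

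**Figure D3:**
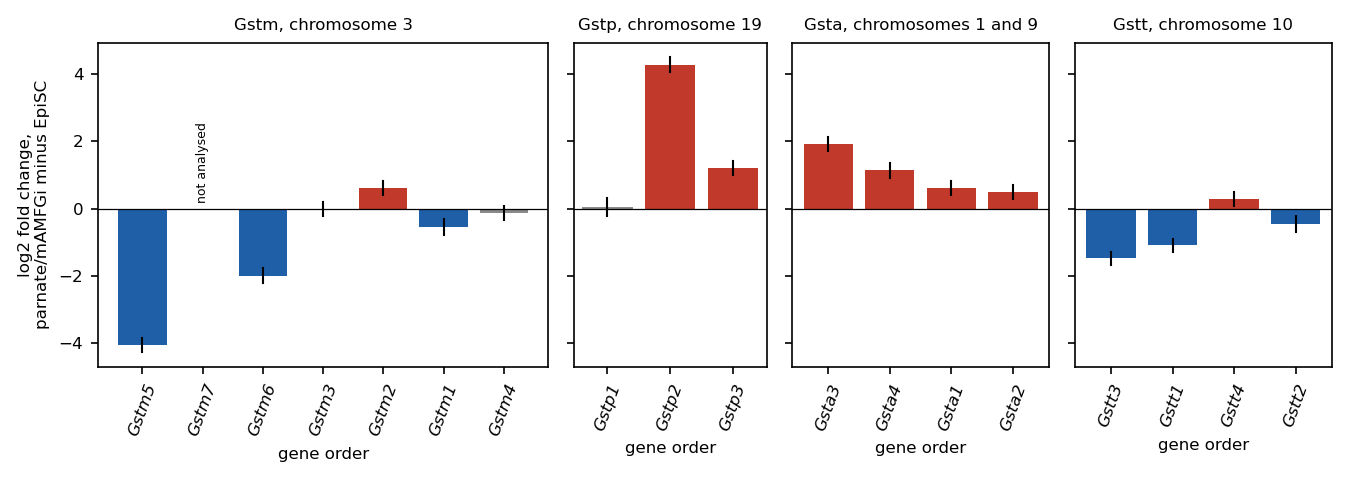
Log2 fold change (y axis, parnate/mAMFGi minus EpiSC) of the mu, pi, alpha and theta transferase genes in their gene order (x axis, not to scale), with 95% limma intervals as black lines. Red bars were higher, blue bars lower and grey bars did not pass; within the mu and pi clusters, values span −4.05 to 0.61 and 0.04 to 4.27.

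Theta, omega and kappa genes mostly fell. Gstk1, which encodes the transferase of mitochondria and peroxisomes, read 248.2 and 216.4 in parnate/mAMFGi, against 1836 and 1997 in EpiSC (log2 fold change −3.05, SE 0.10, adjusted p = 1.15e-11). Gsto1, an omega-class gene whose product reduces dehydroascorbate, read 1014 and 943.9 in parnate/mAMFGi, against 2286 and 2072 in EpiSC (−1.15, SE 0.10, adjusted p = 1.98e-07). Gsto2 fell by 0.43 but read between 42.4 and 59.2 throughout.

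The 4 theta genes lie next to each other on chromosome 10. Gstt3 read 239.7 and 233.0 in parnate/mAMFGi, against 671.8 and 642.4 in EpiSC (log2 fold change −1.47, SE 0.09, adjusted p = 8.88e-09). Gstt1 (−1.09) and Gstt2 (−0.47) also fell. The Gstt2 call was lost when parnate/mAMFGi replicate 2 was left out (adjusted p = 0.084; all alternatives, 2.98e-04 to 0.084). Gstt4 rose by 0.28 (adjusted p = 0.0415) at intensities of at most 50.5, and 7 of 13 alternatives ended that call (adjusted p up to 0.394). Gstz1, the zeta-class gene of tyrosine breakdown, did not pass (0.09).

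Microsomal transferases are unrelated membrane proteins with the same activity. Mgst3 (0.29, adjusted p = 0.054) and Mgst2 (−0.12, dim) did not pass, and Mgst3 passed under 6 of 14 alternatives. For Mgst1 the 2 probes were called in opposite directions, which happened in no other gene here. The brighter probe read 137.4 and 126.9 in parnate/mAMFGi, against 275.0 and 288.6 in EpiSC (log2 fold change −1.09, adjusted p = 2.66e-07). The dimmer probe read 78.8 and 80.0 in parnate/mAMFGi, against 36.8 and 39.8 in EpiSC (1.05, adjusted p = 3.57e-07). Averaged, they gave −0.02 (adjusted p = 0.892, in a range of 3.98e-09 to 0.892), so no direction can be given for the gene.

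Glutathione synthesis genes rose at its entry step. Gclm, the modifier subunit of glutamate-cysteine ligase, read 2568 and 2756 in parnate/mAMFGi, against 1052 and 1149 in EpiSC (log2 fold change 1.28, SE 0.10, adjusted p = 6.21e-08). Gclc, the catalytic subunit of that ligase, read 106.8 and 110.6 in parnate/mAMFGi, against 73.9 and 87.2 in EpiSC (0.44, SE 0.10, adjusted p = 0.00302). The Gclc call was lost when parnate/mAMFGi replicate 2 was left out (adjusted p = 0.0597; all alternatives, 6.67e-04 to 0.0597). Gss, which adds glycine, did not pass (−0.05, adjusted p = 0.741) and read between 96.1 and 106.5 on the 4 arrays. The dimmest of its 3 probes fell by 0.38 (adjusted p = 0.00838).

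Glutathione peroxidase genes gave 3 rises and 1 fall among 8. Gpx2, the peroxidase best known from gut epithelium, read 1331 and 1315 on the parnate/mAMFGi arrays, against 65.4 and 76.1 on the EpiSC arrays (log2 fold change 4.23, SE 0.10, adjusted p = 3.9e-13). The gene thus read just above the array medians in EpiSCs and far above them in the parnate/mAMFGi cells. Gpx1, the widely expressed cytosolic peroxidase, read 28356 and 31586 in parnate/mAMFGi, against 10454 and 11448 in EpiSC (1.45, SE 0.10, adjusted p = 2.1e-08). Gpx4, which reduces lipid hydroperoxides in membranes and thereby guards against ferroptosis, read 1732 and 1702 in parnate/mAMFGi, against 700.8 and 845.6 in EpiSC (1.16, SE 0.11, adjusted p = 4.22e-07). Groups did not overlap for any of these 3 genes, and with all probes averaged the Gpx4 change was 0.76.

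The fall was in Gpx8, a peroxidase of the endoplasmic reticulum, which read 580.9 and 547.7 in parnate/mAMFGi, against 1633 and 1591 in EpiSC (log2 fold change −1.51, SE 0.09, adjusted p = 7.11e-09). All 3 Gpx8 probes fell, with log2 fold changes between −1.51 and −1.19. Its relative Gpx7 did not pass (0.25, adjusted p = 0.0651), nor did the secreted Gpx3, whose groups overlapped at 1120 and 966.2 in parnate/mAMFGi and 1024 and 1143 in EpiSC. Gpx5 (0.07) and Gpx6 (0.16) did not pass and read at most 47.7.

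The 4 peroxiredoxin genes analysed changed in both directions, each by less than 2-fold. Prdx2, a cytosolic peroxiredoxin, read 4927 and 5194 in parnate/mAMFGi, against 9400 and 9819 in EpiSC (log2 fold change −0.93, SE 0.09, adjusted p = 1.27e-06). With its 2 dim probes averaged in, the change was −0.26 (adjusted p = 0.0267, in a range of 2.03e-08 to 0.0267). Prdx4, the peroxiredoxin of the endoplasmic reticulum, fell by 0.56 and read 6903 and 6455 in parnate/mAMFGi, against 9685 and 9989 in EpiSC (adjusted p = 1.87e-04). Prdx3, the mitochondrial one, rose by 0.52 with 428.1 and 409.0 in parnate/mAMFGi, against 308.9 and 276.2 in EpiSC (adjusted p = 5.09e-04). Prdx1 read 13444 and 13662 in parnate/mAMFGi and 12202 and 12013 in EpiSC, and did not pass (0.16, adjusted p = 0.204), although its groups did not overlap; it passed under cyclic loess (adjusted p = 0.0148, in a range of 0.0148 to 0.459).

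Of 18 thioredoxin-named genes, 4 rose, 4 fell and 10 did not pass. By far the deepest fall was in Txnip, which encodes the thioredoxin-binding arrestin that also curbs glucose uptake and whose transcription is known to follow glucose. It read 1175 and 1151 on the parnate/mAMFGi arrays, against 14493 and 13989 on the EpiSC arrays (log2 fold change −3.61, SE 0.09, adjusted p = 7.46e-13). The gene was bright in both groups, so background compresses this fold little, and over 14 alternatives it lay between −3.67 and −3.52.

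Changes in thioredoxin and its reductases were small. Txn1, cytosolic thioredoxin, read 1082 and 1154 in parnate/mAMFGi, against 729.5 and 945.7 in EpiSC (log2 fold change 0.43, SE 0.12, adjusted p = 0.00867). That call was lost without EpiSC replicate 1 (0.103), parnate/mAMFGi replicate 1 (0.0635) or parnate/mAMFGi replicate 2 (0.133), and with its dim probes averaged in (0.182), in a range of adjusted p from 3.24e-04 to 0.182. Txnrd1, the cytosolic reductase, read 392.8 and 551.4 in parnate/mAMFGi, against 312.2 and 344.4 in EpiSC (0.51, SE 0.13, adjusted p = 0.00678). Its parnate/mAMFGi arrays were far apart, and the call was lost when parnate/mAMFGi replicate 2 was left out (adjusted p = 0.19; all alternatives, 4.62e-04 to 0.19). Txnrd3 rose by 0.58 with 138.3 and 135.8 in parnate/mAMFGi, against 89.7 and 94.0 in EpiSC. The mitochondrial pair, Txn2 (−0.05) and Txnrd2 (−0.14), did not pass, although the dimmer Txnrd2 probe fell by 0.25 (adjusted p = 0.0427).

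Among proteins that carry a thioredoxin fold for other tasks, Txndc12, an oxidoreductase of the endoplasmic reticulum, read 650.5 and 539.4 in parnate/mAMFGi, against 1642 and 1820 in EpiSC (log2 fold change −1.55, SE 0.11, adjusted p = 2.83e-08). Txndc5, a disulfide isomerase of the endoplasmic reticulum, fell by 0.79 and read 763.2 and 752.1 in parnate/mAMFGi, against 1399 and 1230 in EpiSC. Txndc15 fell by 0.45. Txnl4a, a spliceosome protein with that fold and no known part in peroxide defence, rose by 0.70, with 4 of 4 probes higher. Txnl4b did not pass (−0.03). Txndc2, Txndc8, Txndc9, Txndc11, Txndc16, Txndc17 and Txnl1 did not pass either and read at most 64.3 on every array, so their probes say little about the genes.

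**Figure D4:**
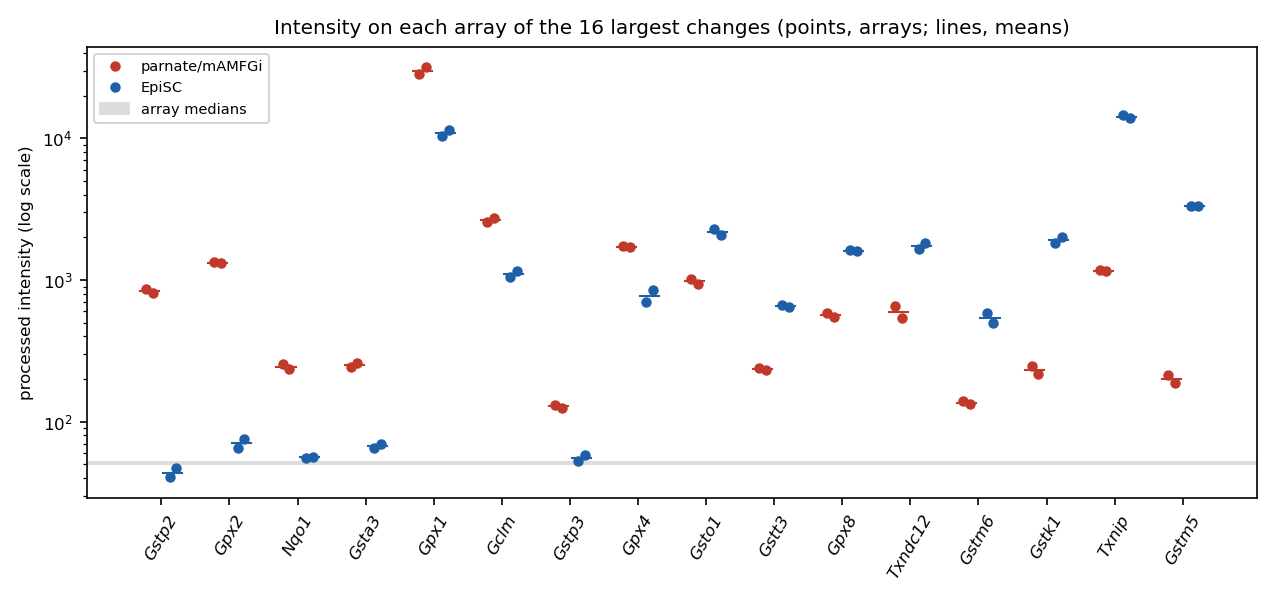
Processed intensity on each array (y axis, log scale) of the 16 members with the largest absolute changes (x axis, from the largest rise to the largest fall). Points are arrays and short lines group means, parnate/mAMFGi left of EpiSC, and the grey band marks the array medians. The 16 genes were picked among called members whose groups did not overlap, so their separation follows from the choice. Gstp2, Gpx2, Nqo1, Gsta3 and Gstp3 read near the band in EpiSC.

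All 3 superoxide dismutase genes rose, and catalase fell. Sod1, the cytosolic copper-zinc enzyme, read 15762 and 14122 on the parnate/mAMFGi arrays, against 7526 and 7737 on the EpiSC arrays (log2 fold change 0.97, SE 0.10, adjusted p = 1.14e-06). Sod2, the mitochondrial manganese enzyme, read 3775 and 4006 in parnate/mAMFGi, against 2734 and 3225 in EpiSC (0.39, SE 0.10, adjusted p = 0.00714). The Sod2 call was lost when EpiSC replicate 1 (adjusted p = 0.0659) or parnate/mAMFGi replicate 2 (0.108) was left out, and all alternatives lay between 0.00118 and 0.108. Sod3, the extracellular enzyme, rose by 0.41 but read between 40.9 and 56.6, within the background. Cat, which encodes the peroxisomal catalase, read 249.5 and 236.4 in parnate/mAMFGi, against 334.9 and 304.6 in EpiSC (−0.40, SE 0.10, adjusted p = 0.00395), and its call was lost when parnate/mAMFGi replicate 2 was left out (adjusted p = 0.0715; all alternatives, 0.00176 to 0.0715).

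Nqo1, Hmox1 and both metallothionein genes rose. Nqo1, which reduces quinones and is a standard NRF2 target, read 256.0 and 234.4 in parnate/mAMFGi, against 55.6 and 56.8 in EpiSC (log2 fold change 2.12, SE 0.10, adjusted p = 2.46e-10). Its dim second probe rose as well (0.41), and the mean of both gave 1.27 (adjusted p = 1.72e-07, in a range of 1.28e-14 to 7.25e-06). Hmox1, which degrades heme, read 288.7 and 265.2 in parnate/mAMFGi, against 212.6 and 176.3 in EpiSC (0.52, SE 0.11, adjusted p = 0.00121). The metallothionein gene Mt1 read 7140 and 6612 in parnate/mAMFGi, against 3632 and 3911 in EpiSC (0.87, SE 0.10, adjusted p = 3.35e-06). Mt2, next to Mt1 on chromosome 8, rose by 0.84, with 98.0 and 97.2 in parnate/mAMFGi, against 50.4 and 58.6 in EpiSC.

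Promoter sequences from RefSeq (GRCm38.p6, 250 bases before to 50 after a gene's start) were available for 58 of the 65 genes, 12 of them with several starts, and were searched on both strands. The antioxidant response element core bound by NRF2 was searched as TGACNNNGC. It occurred in 5 of 20 members that rose (25%), 3 of 17 that fell (17.6%) and 3 of 21 that did not pass (14.3%). It was held by 15.5% of 13335 genes on the array and 12.4% of all 32851 promoters, so the core was found on both sides of the comparison. The metal response element core bound by MTF1 was searched as TGCNCNC, a loose motif that 51% of all promoters and 58.9% of genes on the array held. It occurred in 12 of 20 members that rose (60%) and 10 of 17 that fell (58.8%), and in 10 of 21 that did not pass (47.6%). Neither a match nor its absence in this window shows whether a factor binds.

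The printed promoters are those of the called genes with the largest absolute changes whose promoter holds the antioxidant core, namely Gstm5, Gsta3 and Gclm, and that of Mt1 for its metal cores. Each runs 5′ to 3′ on the gene's own strand, the plus strand in all 4. Capitals mark the antioxidant core in Gstm5, Gsta3 and Gclm, and the metal core in Mt1. Matches to the metal core in Gstm5 (1) and Gclm (3) are left in lower case. Gstm5 (chr3:107895604-107895903), which fell, holds the core from −42 to −34 relative to the start. Gsta3 (chr1:21240335-21240634), which rose, holds it from −121 to −113. Gclm (chr3:122245307-122245606), which rose, holds it on the opposite strand from −134 to −126, where it overlaps 1 match to the metal core. Mt1 (chr8:94178839-94179138), which rose, holds 3 metal cores that do not overlap, and 0 antioxidant cores. The metal cores run from −23 to −17, from 2 to 8 and from 20 to 26, so only the first lies before the start.
Gstm5: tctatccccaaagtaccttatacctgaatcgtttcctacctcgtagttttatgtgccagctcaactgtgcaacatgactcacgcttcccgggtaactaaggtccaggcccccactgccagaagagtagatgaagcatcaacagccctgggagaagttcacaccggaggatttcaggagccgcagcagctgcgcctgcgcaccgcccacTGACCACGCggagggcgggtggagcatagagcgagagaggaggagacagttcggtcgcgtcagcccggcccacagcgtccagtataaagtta
Gsta3: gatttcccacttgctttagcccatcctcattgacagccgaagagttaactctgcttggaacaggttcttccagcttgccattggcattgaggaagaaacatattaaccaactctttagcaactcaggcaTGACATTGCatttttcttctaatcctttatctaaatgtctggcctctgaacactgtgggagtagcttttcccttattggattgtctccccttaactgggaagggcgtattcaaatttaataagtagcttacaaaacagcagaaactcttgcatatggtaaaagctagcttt
Gclm: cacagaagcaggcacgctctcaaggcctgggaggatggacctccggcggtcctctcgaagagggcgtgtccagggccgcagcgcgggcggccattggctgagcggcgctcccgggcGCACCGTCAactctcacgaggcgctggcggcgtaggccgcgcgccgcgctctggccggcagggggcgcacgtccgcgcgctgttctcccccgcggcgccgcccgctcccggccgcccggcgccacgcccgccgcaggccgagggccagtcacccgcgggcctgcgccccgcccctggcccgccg
Mt1: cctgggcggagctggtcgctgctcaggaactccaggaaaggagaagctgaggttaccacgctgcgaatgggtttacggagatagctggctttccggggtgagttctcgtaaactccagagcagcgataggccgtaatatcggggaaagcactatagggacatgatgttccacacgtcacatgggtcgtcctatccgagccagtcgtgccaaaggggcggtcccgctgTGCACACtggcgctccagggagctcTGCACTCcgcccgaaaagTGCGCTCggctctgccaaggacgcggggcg

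The regulators and partners of these genes were read from a list of 47 genes of NRF2 control, NADPH supply, glutaredoxins, cystine uptake, glutathione turnover, and metal and selenium handling, of which 43 were measured. Of these, 14 rose, 13 fell and 16 did not pass, so 27 of 43 were called, against 41.5% of all genes. Of the 30 with a mean of at least 100, 21 were called (70%), against 72.8% of all genes of that brightness. The list's median log2 fold change was 0.07. The list's share of calls was thus near that of equally bright genes, with calls on both sides.

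Within the list, both the NRF2 gene and the gene of its inhibitor were higher. Nfe2l2 read 143.1 and 163.1 in parnate/mAMFGi, against 115.4 and 98.2 in EpiSC (log2 fold change 0.52, SE 0.11, adjusted p = 0.00113), a call lost when parnate/mAMFGi replicate 2 was left out (adjusted p = 0.0508; all alternatives, 4.29e-04 to 0.0508). Keap1 read 671.1 and 577.2 in parnate/mAMFGi, against 331.4 and 338.4 in EpiSC (0.89, SE 0.10, adjusted p = 3.87e-06). Of the list's other genes of NRF2 control, Mafg rose (0.55), Bach1 (−0.57) and the dim Mafk (−0.34) fell, and Osgin1 did not pass (0.03). The Bach1 and Mafk calls were each lost with 1 parnate/mAMFGi array left out. Srxn1, the sulfiredoxin that revives over-oxidised peroxiredoxins and an NRF2 target, read 303.9 and 289.4 in parnate/mAMFGi, against 84.7 and 98.2 in EpiSC (1.70, SE 0.10, adjusted p = 4.82e-09). The cystine transporter genes Slc7a11 (0.67) and Slc3a2 (0.64) rose, with Slc7a11 at 59.3 and 62.8 in parnate/mAMFGi, against 36.6 and 40.4 in EpiSC, near the background.

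The zinc exporter gene Slc30a1, like Mt1 an MTF1 target, read 450.1 and 486.3 in parnate/mAMFGi, against 129.5 and 140.2 in EpiSC (log2 fold change 1.80, SE 0.10, adjusted p = 1.67e-09). Mtf1 itself did not pass (−0.03) and read near the array medians. The sestrin genes moved apart. Sesn2 rose by 1.53 with 492.1 and 546.0 in parnate/mAMFGi, against 183.3 and 176.8 in EpiSC. Sesn1 fell by 2.23 with 211.9 and 201.3 in parnate/mAMFGi, against 955.7 and 976.7 in EpiSC; with all its probes averaged the change was −1.62.

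Of 4 measured genes of NADPH-producing enzymes, the malic enzyme gene Me1 rose (log2 fold change 1.04) and the mitochondrial isocitrate dehydrogenase gene Idh2 fell. Idh1 (−0.18, adjusted p = 0.225) and Nnt (0.05, adjusted p = 0.761) did not pass, and Nnt read at most 41.9, below the array medians. Idh2 read 1218 and 1162 in parnate/mAMFGi, against 2819 and 2965 in EpiSC (−1.28, SE 0.09, adjusted p = 4.22e-08). Hagh, the glyoxalase that hydrolyses lactoyl-glutathione, fell by 1.23 with 270.1 and 276.6 in parnate/mAMFGi, against 577.8 and 709.9 in EpiSC. Glutaredoxins use glutathione to reduce protein disulfides, and of 4 measured genes 3 fell and Glrx5 did not pass (−0.002, adjusted p = 0.994). Glrx read 1193 and 1342 in parnate/mAMFGi, against 1897 and 1720 in EpiSC (−0.51, adjusted p = 7.31e-04). Glrx2 (−0.51) missed the threshold with its probes averaged (−0.05, adjusted p = 0.707) and without EpiSC replicate 2 (−0.25, adjusted p = 0.0856); all alternatives lay between 4.12e-05 and 0.707. Without parnate/mAMFGi replicate 1 or 2 its fold stayed at −0.51 and −0.50 while the adjusted p was 0.0934 and 0.0966. Glrx3 (−0.39) missed it without EpiSC replicate 2 (−0.27, adjusted p = 0.0595), parnate/mAMFGi replicate 1 (−0.38, 0.0834) or parnate/mAMFGi replicate 2 (−0.41, 0.0635), and stood at 0.12 with its probes averaged (all alternatives, 0.00133 to 0.338).

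Of the genes that build selenocysteine into proteins, Secisbp2, which binds the selenocysteine insertion element, read 217.7 and 182.8 in parnate/mAMFGi, against 109.6 and 122.0 in EpiSC (log2 fold change 0.79, SE 0.11, adjusted p = 2.71e-05). Sepsecs (0.72) and Eefsec (0.32) rose too, at intensities of at most 74.2. The Eefsec call was lost without EpiSC replicate 1 (0.0678), parnate/mAMFGi replicate 1 (0.0654) or parnate/mAMFGi replicate 2 (0.148), in a range of adjusted p from 0.00974 to 0.148. Sephs1 (0.15) and Sephs2 (0.12) did not pass, and Sephs1 read at most 46, below the array medians.

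Probes of the same gene were compared where the array had several. Of 20 such members, 12 had the same call from every probe, 7 had probes that passed beside probes that did not, and Mgst1 alone had opposite calls. The number of arrays, 2 in each group, limits the precision of every value.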

How the data were processed

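The deposited values are intensities that the authors had already processed, on a linear scale. The software, background step and normalization behind them are not given in the sources consulted here. Array medians were 50 to 52 and the lowest intensity 25.5, so background remained. A second deposited table, of signal before normalization, has 8 columns whose names match no label and was left out, and with it the detection calls and background filter planned on it. Intensities were log2-transformed with no pseudocount, filter or further normalization, and fitted with limma 3.58.1 in R 4.3.3 (lmFit, eBayes) over all 25697 probes, with Benjamini-Hochberg adjustment over all of them. The fit was run on simulated data with independent noise drawn from its own fitted variances and few changed probes. That setting differs from these data, where 38.4% of probes were called, so it says little about the p-values here. Residual degrees of freedom were 2, with 11.8 prior degrees of freedom. With 11.8 prior against 2 residual degrees of freedom, each SE and p-value leans mostly on variance shared over all probes (prior SD 0.10 on the log2 scale). A gene's own 4 values add less. The labels do not say whether replicates were separate cultures, so the spread between these samples may be technical. Deviations of same-numbered arrays correlated at −0.057, so no shift shared by replicate number was seen. Whether same-numbered samples were prepared together cannot be told from this value. Symbols came from the platform annotation, and 1719 probes had none.

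The members and lists were chosen with earlier results of these data known. The rule for named genes took the 16 members with the largest absolute change among those called with non-overlapping groups. It also took the brightest member of each of 6 families, the lowest and highest of each family and a fixed set of single members. Of the pathway list it took Nfe2l2, Keap1, Slc7a11, Srxn1 and the 8 called genes with the largest absolute change. Other members and pathway genes named with values (among them Gsta4, Prdx4, Txndc5, Glrx and Secisbp2) fall outside the rule and were picked after their values were seen. Promoters came from RefSeq, assembly GRCm38.p6. Alternatives covered other scalings, background corrections, moderation settings, a filter on dim probes, averaged probes, a replicate block and leaving out each array. Protein sequences were not analysed here.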

Additional observations from a re-analysis of the deposited data

How the results depend on the processing

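Over 14 alternatives the called members numbered 36 to 44, with 20 to 26 higher and 16 to 18 lower, and the called pathway genes 19 to 27. Called probes numbered 7490 to 9986 over 13 alternatives. Leaving out 1 array in turn gave 36 to 43 members, 20 to 25 higher, 16 to 18 lower, 19 to 26 pathway genes and 7490 to 9625 probes. With a replicate block, 44 members (26 higher, 18 lower), 27 pathway genes and 9912 probes were called. Of the 43 called members, 35 kept their call in every alternative run. Of all 29 gene calls lost by leaving out an array, 15 were lost without parnate/mAMFGi replicate 2. The cause was not tested.

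Signs turned in 7 genes, of which Glrx3 alone was called in the fit as reported. Averaging all its probes gave 0.12 for Glrx3. Gstp1 stood at −0.009 with a common median and between −0.144 and 0.232 with 1 array left out. Gpx3 stood at 0.013 after quantile normalization and after normexp with either offset, and between −0.163 and 0.050 with 1 array left out. With 1 array left out, Gss lay between −0.128 and 0.020, Gstm3 between −0.106 and 0.050, Txn2 between −0.137 and 0.041, and Txnl4b between −0.070 and 0.014. Intensities near the array medians limit what dim probes can show.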
